A study of Mus musculus with 2 samples.

Results

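Genes of the mouse liver that lie under Wnt control around the central vein, or that carry or restrain the Wnt signal there, were read from cultured hepatocytes of *Drp1*LiKO mice and of their controls. They were *Glul*, *Axin2*, *Lgr5*, *Tbx3*, *Rnf43*, *Znrf3*, *Oat*, *Rgn*, *Ctnnb1* and *Lect2*, chosen by gene name, 10 of the 37074 names on the array, and every probe of each name was used, 20 probes in all. The control mice were *Drp1*flox/flox littermates, called wild type in the sample labels, and the *Drp1*LiKO mice carried the same floxed alleles with Cre recombinase driven by the albumin promoter, which is active in hepatocytes. The labels give a C57BL/6 background for both, and neither culture received LPS. The study's methods state an age range and male sex for purchased C57BL/6 J mice, and do not state them for the bred littermates behind the arrays. Hepatocytes were freed by collagenase perfusion, pelleted at low speed, seeded on collagen in medium with insulin and serum, and harvested 24 h later, so the arrays hold whole cultures rather than sorted cells. Total RNA labeled with Cy3 was hybridized to 1 array per genotype, both on 1 slide, with 60-base probes. No genotype was measured a second time, so no test was made and every difference describes these 2 arrays. Where a pair of signals is given, that of control cells comes first.

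Liver cells differ in function along the path of the blood, from the portal vein to the central vein, a pattern called zonation. Endothelial cells of the central vein release Wnt ligands and an R-spondin, which keep β-catenin stable in the neighboring hepatocytes and thereby turn on pericentral genes such as that of glutamine synthetase. R-spondins act through LGR receptors by removing the ubiquitin ligases that would otherwise clear Wnt receptors from the cell surface, and hepatocytes away from this signal express the periportal genes of urea synthesis.

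The signals of these genes rest on the probe sequences that follow, 5′ to 3′ as the array files give them, with mm9 coordinates. Both *Glul* probes are shown because they gave a difference that the brightest *Glul* probe did not, the *Ctnnb1* and *Tbx3* probes because they are second readings of their genes, and the *Axin2* and *Lgr5* probes because they stayed at background. Each holds at least 1 reading frame with no stop codon. Exons and untranslated regions were not assigned, since no annotation in mm9 was used here.
*Glul*, chr1:155751765-155751824, plus strand: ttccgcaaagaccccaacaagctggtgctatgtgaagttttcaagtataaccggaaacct
*Glul*, chr1:155755109-155755168, plus strand: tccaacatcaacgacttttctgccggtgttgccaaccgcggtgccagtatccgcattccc
*Ctnnb1*, chr9:120860495-120860554, plus strand: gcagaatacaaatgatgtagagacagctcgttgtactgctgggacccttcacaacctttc
*Tbx3*, chr5:120132985-120133044, plus strand: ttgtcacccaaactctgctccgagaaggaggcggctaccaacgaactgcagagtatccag
*Axin2*, chr11:108803927-108803986, plus strand: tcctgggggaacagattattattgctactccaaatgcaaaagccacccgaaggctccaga
*Lgr5*, chr10:114899782-114899841, minus strand: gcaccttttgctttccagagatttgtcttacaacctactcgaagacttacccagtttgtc

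The 10 genes did not move in one direction. *Rgn* and *Lect2* had higher signals in *Drp1*LiKO than in control cells, *Tbx3* and *Oat* had lower ones, the brightest probes of *Glul*, *Ctnnb1* and *Znrf3* lay near 0 on the log2 scale, and *Axin2* and *Lgr5* were not well above background on either array. A difference is given as a log2 ratio, *Drp1*LiKO minus control, of processed signals divided by the 75th percentile signal of each array, namely 313 (control) and 356 (*Drp1*LiKO). A gene is read by its brightest probe unless another is named. The limits applied to it were a Z score of 2 over all detected probes, reached at a log2 ratio of 1.30 or -1.31, and a fold of 1.5. Of the 10 genes, 8 had a signal well above background, each of them with both RNAs. Of these 8, 0 were higher and 0 were lower past the Z score of 2, where 3.50% of the 20165 detected genes were higher and 2.81% were lower. At 1.5-fold, 1 of the 8 (*Rgn*) was higher and 2 (*Tbx3* and *Oat*) were lower, where 10.3% of all detected genes were higher and 10.3% were lower. Their median log2 ratio was 0.04, beside -0.05 over all detected genes, with 5 genes above 0 and 3 below. Counts of 1 and 2 among 8 genes are too few to set the list apart from that background.

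**Figure D1:**
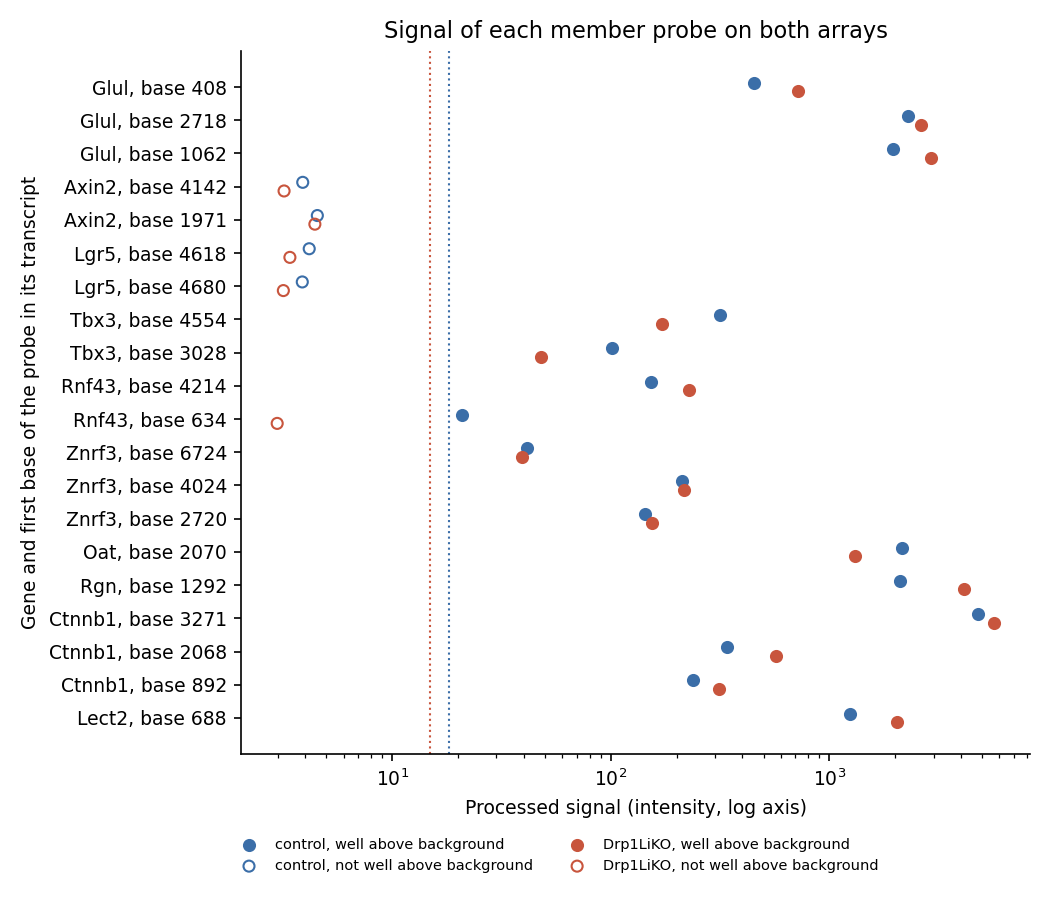
Processed signal (intensity, log axis) of each of the 20 probes in control (blue) and *Drp1*LiKO (red) cells, 1 array each, with probes named by gene and by the start position the files list for them. Filled points were well above background and open points were not, and the dotted lines mark the lowest signal well above background, 18.2 (control) or 15.0 (*Drp1*LiKO). The probes of *Axin2* and *Lgr5* lie left of both lines, and the largest gaps between filled points are those of *Tbx3* and *Rgn*.

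Among the hepatocyte genes of the pericentral program, *Glul* encodes glutamine synthetase, which binds ammonia that escapes the urea cycle and marks the hepatocytes next to the central vein. Its brightest probe (NM_008131, chr1:155756765-155756824) had signals of 2280 (control) and 2612 (*Drp1*LiKO), a log2 ratio of 0.01 after scaling. The probe starting at base 1062 of the transcript had signals of 1946 and 2911, a log2 ratio of 0.40, and the probe starting at base 408 had signals of 451 and 716, a log2 ratio of 0.48. All 3 signals were higher on the *Drp1*LiKO array as scanned, but after scaling the brightest probe showed no difference beyond the noise between spots, 0.11 on the log2 scale, while the other probes lay beyond it. The range of 0.47 between the *Glul* probes was wider than that of 75.6% of the 6055 genes with at least 2 probes measured on both arrays. The size of the *Glul* difference therefore depends on the probe, from 1.01-fold to 1.40-fold higher, all short of both limits.

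*Rgn*, for regucalcin, a calcium-binding lactonase of the vitamin C pathway, had the highest ratio of the 10 genes. Its probe (NM_009060, chrX:20138932-20138991) had signals of 2112 (control) and 4110 (*Drp1*LiKO). The log2 ratio was 0.78, or 1.71-fold higher, with a Z score of 1.20, and 92.6% of all detected genes had a lower ratio. *Oat* encodes ornithine aminotransferase, a mitochondrial enzyme expressed with glutamine synthetase around the central vein, and it went the other way. Its probe (NM_016978, chr7:139749183-139749242) had signals of 2140 (control) and 1310 (*Drp1*LiKO), a log2 ratio of -0.89, or 1.85-fold lower, with 5.55% of all detected genes below it. *Rgn* and *Oat*, each read by 1 probe, thus lay on opposite sides of 0, both past 1.5-fold. *Lect2*, which encodes a protein that hepatocytes secrete and that was described as a β-catenin target, followed *Rgn*. Its probe (NM_010702, chr13:56643950-56644009) had signals of 1243 (control) and 2043 (*Drp1*LiKO), a log2 ratio of 0.53, or 1.45-fold higher. The noise between spots at these signals was 0.11 for *Rgn*, 0.11 for *Oat* and 0.12 for *Lect2* on the log2 scale, smaller than each difference, but it holds no variation between mice or cultures.

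The transcriptional regulator *Tbx3*, a T-box repressor that Wnt signaling turns on in pericentral hepatocytes, had the lowest ratio of the 10 genes. Its brightest probe (NM_198052, chr5:120134511-120134570) had signals of 316 (control) and 172 (*Drp1*LiKO), a log2 ratio of -1.06, or 2.09-fold lower. The probe starting at base 3028 had signals of 101 and 47.9, a log2 ratio of -1.26, or 2.40-fold lower. Both probes were lower by more than the noise between spots, 0.11 and 0.23, and they lay 0.20 apart, while 42.9% of genes with several probes had a smaller range. Neither passed the Z score of 2 (-1.62 and -1.92), and 4.01% of all detected genes had a lower ratio than the brightest *Tbx3* probe.

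*Ctnnb1* encodes β-catenin itself, the coactivator through which the Wnt signal reaches these genes and a part of cell junctions. Its brightest probe (NM_007614, chr9:120869274-120869333) had signals of 4774 (control) and 5659 (*Drp1*LiKO), a log2 ratio of 0.06. The probe starting at base 892 of the same transcript had signals of 237 and 312, a log2 ratio of 0.21. A probe listed for another *Ctnnb1* transcript had signals of 340 and 573, a log2 ratio of 0.57, the highest of the gene. The range of 0.51 between them was wider than that of 77.9% of genes with several probes, and none of the 3 probes reached either limit.

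Of the feedback genes, *Axin2* encodes a scaffold of the complex that destroys β-catenin and is a widely used readout of Wnt activity, and *Lgr5* encodes an R-spondin receptor. The *Axin2* probes had control signals of 3.90 and 4.55 and *Drp1*LiKO signals of 3.21 and 4.43. The *Lgr5* probes had control signals of 4.18 and 3.88 and *Drp1*LiKO signals of 3.41 and 3.18. All lay under the lowest signal well above background, 18.2 (control) or 15.0 (*Drp1*LiKO), so no difference was detectable for either gene and no fold is given. *Rnf43* and *Znrf3* encode the ubiquitin ligases that remove Wnt receptors and are themselves induced by the pathway. The brightest *Rnf43* probe (chr11:87548944-87549003) had signals of 153 (control) and 227 (*Drp1*LiKO), a log2 ratio of 0.39, or 1.31-fold higher. A probe for another *Rnf43* transcript, with 20.9 on the control array and 2.98, not well above background, on the other, came out at least 1.58-fold lower, so the *Rnf43* probes gave both directions, the dim one close to the limit of detection. The 3 *Znrf3* probes had control signals of 212, 144 and 41.5 and *Drp1*LiKO signals of 216, 154 and 39.4, with log2 ratios of -0.16, -0.09 and -0.26. All were slightly below 0 and within 0.17 of each other, a range close to the noise between spots, 0.13 to 0.27. The ratios of *Rnf43* and *Znrf3* took the other sign under 1 alternative each, -0.14 for *Rnf43* by the median of its probes and 0.21 for *Znrf3* in the deposited normalized values.

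**Figure D2:**
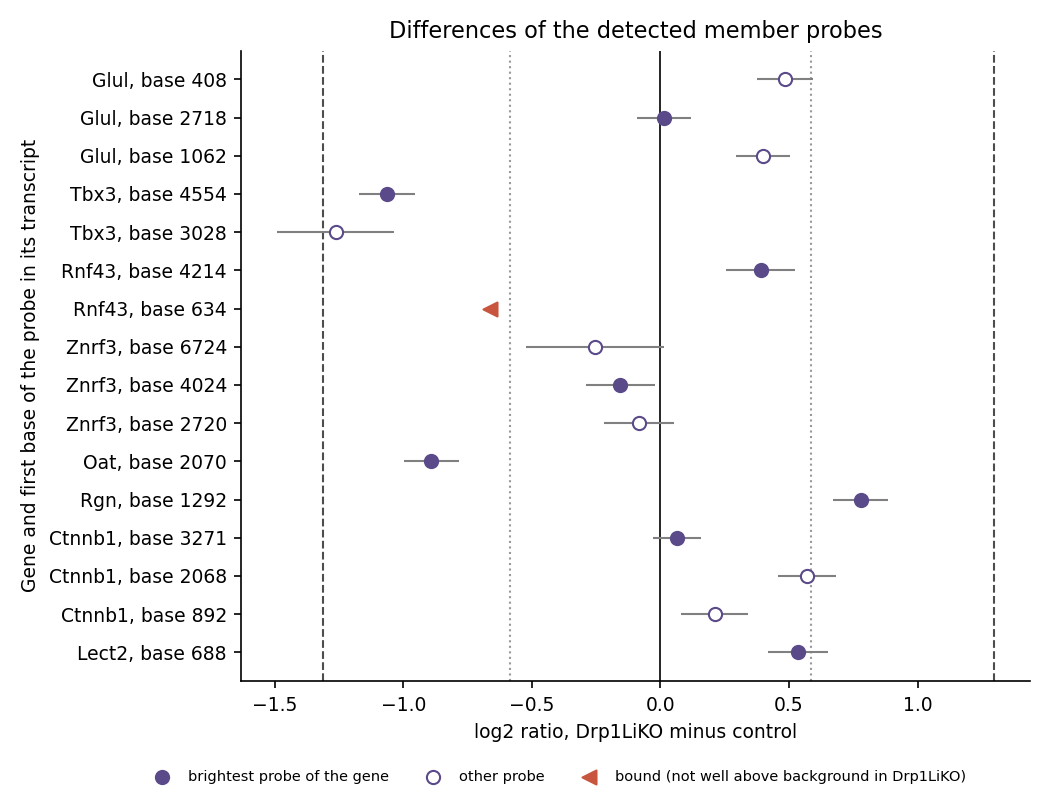
Log2 ratio (*Drp1*LiKO minus control) of the 16 probes detected on at least 1 array. Filled points are the brightest probe of a gene, open points its other probes, and the triangle a bound; horizontal lines are the noise between spots at that signal, dotted lines 1.5-fold and dashed lines a Z score of 2. Both *Tbx3* probes lie near -1, *Oat* at -0.89, *Rgn* at 0.78, and no probe passes a dashed line.

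Ordered by ratio, the detected genes ran from *Rgn* (0.78) through *Lect2*, *Rnf43*, *Ctnnb1*, *Glul* and *Znrf3* to *Oat* and *Tbx3* (-1.06), a span of 1.84 on the log2 scale. The spread between probes of one gene, pooled over the array, was 0.31, which gives 0.44 for a difference between 2 genes. Of the 7 steps between neighbors in the order, only that from *Znrf3* to *Oat*, 0.73, was larger. All others, from 0.05 between *Ctnnb1* and *Glul* to 0.33 between *Rnf43* and *Ctnnb1*, were within it. On these 2 arrays *Tbx3* and *Oat*, the latter read by 1 probe, thus lay below the rest. Neighbors among the other 6 genes did not differ beyond this spread. The spread is 1 SD between probes and holds no variation between mice or cultures, so the order was described and not tested. With 2 arrays the likeness of expression patterns between genes could not be measured.

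**Figure D3:**
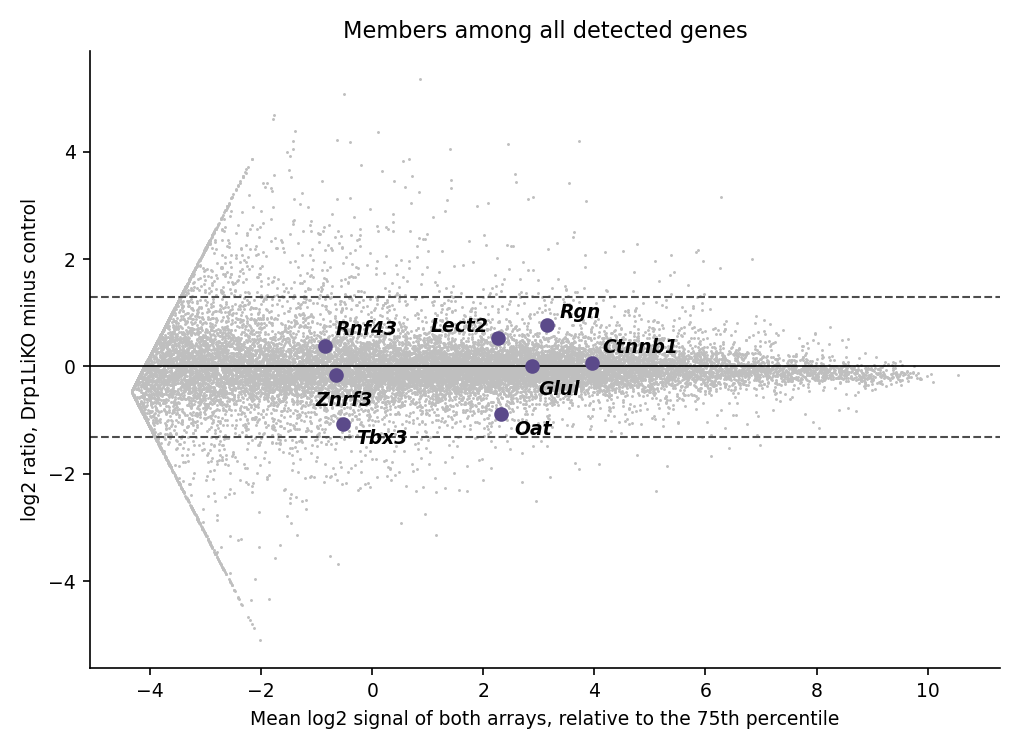
Log2 ratio (*Drp1*LiKO minus control) against mean log2 signal of both arrays relative to their 75th percentiles, for the 20165 detected genes (gray, brightest probe each), with the 8 detected pericentral Wnt genes in purple. The dashed lines mark a Z score of 2, and the diagonal edges at the left are genes set to the detection limit on 1 array. All 8 lie between the dashed lines, with *Rgn* and *Tbx3* farthest apart.

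Promoters were searched for the sequence recognized by TCF and LEF, the DNA-binding partners of β-catenin, as CTTTGAT or CTTTGAA on either strand, in windows from 250 bases before to 50 bases after each RefSeq start (GRCm38.p6). Promoters of *Glul*, *Axin2*, *Rnf43*, *Oat*, *Ctnnb1* and *Lect2* were listed, and *Lgr5*, *Tbx3*, *Znrf3* and *Rgn* were not listed. Of the 6 listed genes, 1 (*Lect2*) held a match, beside 9.88% of 27025 genes in the table. The *Lect2* match begins 32 bases before the start, and it is shown in capitals within the 60 bases upstream of the start, on the minus strand.
*Lect2* promoter, GRCm38.p6, chr13:56548539-56548598: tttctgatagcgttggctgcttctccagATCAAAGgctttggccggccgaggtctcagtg
A match describes these letters alone. Binding was not measured on the arrays, and the other windows holding no match says nothing of more distant sites.

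The wider pathway was read from fixed gene lists, in the order of the signal. Of 25 Wnt ligands and R-spondins with their secretion factors, 13 were detected, 7 above and 6 below 0, with a median log2 ratio of 0.02, and 1 passed the Z score of 2. That gene was *Rspo4*, an R-spondin, with 262 on the control array and 12.3, not well above background, on the *Drp1*LiKO array, at least 19.9-fold lower. The other of the 2 *Rspo4* probes gave no ratio, so this call rests on 1 probe. Its relative *Rspo3*, the R-spondin of central vein endothelium, had the highest ratio of the list. *Rspo3* was not well above background in control cells at 3.91, had a signal of 42.5 in *Drp1*LiKO cells and was at least 2.05-fold higher. The other of the 2 *Rspo3* probes gave no ratio either. Other genes are named here after their values were seen. *Wnt2*, a ligand of the same endothelium, went from 30.4 (control) to 4.84, not well above background, and was at least 2.30-fold lower. *Wls*, which carries Wnt ligands to the cell surface, had signals of 288 and 542, a log2 ratio of 0.73, while its other probe gave 1.56. *Wnt9b* was not detected. The ligand side thus held differences both ways, and 5 of its 13 detected genes were bounds. Over the 9 alternatives that measured them, the log2 ratio of *Rspo4* ran from -4.60 to -2.16, that of *Rspo3* from 0.23 to 3.26 and that of *Wnt2* from -2.83 to -0.50. The filter for detection on both arrays removed all 3 genes, and with them the *Rspo4* call.

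Of 17 receptors and coreceptors, 14 were detected, 4 above and 10 below 0, with a median log2 ratio of -0.18 and 0 past the Z score of 2. Of these 14, 2 were bounds, *Fzd3* and *Lgr6*. *Fzd3*, counted below 0, had 20.3 on the control array, not well above background, and 17.95 on the *Drp1*LiKO array. Its log2 ratio of at least -0.36 ran from -0.44 to 0.00 over 9 alternatives, so its sign is not settled. The lowest was *Ror1*, a Wnt receptor of the tyrosine kinase type, at -0.99 (signals of 80.7 and 46.2), and the highest was *Lgr6*, an R-spondin receptor not well above background in control cells, at least 1.70-fold higher, with a log2 ratio from 0.19 to 3.04 over 9 alternatives. Of 22 signal transducers, 20 were detected, 9 above and 11 below 0, with a median of -0.05 and 0 past the Z score. Their range ran from *Bcl9l*, a β-catenin cofactor, at -0.71 (1058 and 732) to *Dvl2*, a Dishevelled protein, at 0.71 (464 and 863). Of 18 antagonists and other feedback targets, 9 were detected, 3 above and 6 below 0, with a median of -0.15. Among these, *Apcdd1*, a membrane-bound Wnt inhibitor, passed the Z score, with 67.0 on the control array and 14.2, not well above background, on the *Drp1*LiKO array, at least 5.08-fold lower. Its log2 ratio ran from -2.42 to -0.88 over 9 alternatives. *Dkk3*, of the Dickkopf family, was the highest, at least 1.78-fold higher, but its log2 ratio ran from 0.00 in the deposited normalized values to 1.60 with no floor for dim signals, so its difference is not settled. Of the 9 detected genes of this list, 4 were bounds, *Apcdd1*, *Dkk3*, *Nkd1* and *Sfrp4*. The log2 ratio ran from -0.11 to 2.26 for *Nkd1* and from -2.90 to 0.00 for *Sfrp4* over 9 alternatives. These 4 Wnt lists together held 56 detected genes with 2 past the Z score, both lower and both bounds, and neither was measured under the filter for detection on both arrays. Over all detected genes, 3.50% were higher and 2.81% were lower past the same limit. A count of 2 among 56 genes is too few to set these lists apart from that background.

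Genes that mark the 2 zones were set beside the 10 genes. Of 11 other pericentral genes, 10 were detected, 5 above and 5 below 0, with a median log2 ratio of 0.01. *Nr1i3*, the nuclear receptor CAR, was the one past the Z score of 2, at 19.9 (control) and 104 (*Drp1*LiKO), a log2 ratio of 2.20, although normexp background correction gave 0.83. The other of the 2 *Nr1i3* probes gave no ratio. *Cyp2e1*, a cytochrome P450 that metabolizes ethanol, was the lowest, with signals of 12680 and 8360, a log2 ratio of -0.78. Of 12 periportal genes, 11 were detected, 9 above and 2 below 0, with a median of 0.96 and 5 past the Z score, all higher. They were *Hal*, for histidine breakdown (47.9 and 170, log2 ratio 1.65), *Arg1*, the last enzyme of the urea cycle (99.8 and 351, 1.63), *Cyp2f2*, a periportal cytochrome P450 (9496 and 31000, 1.52), *Aldh1b1*, an aldehyde dehydrogenase (161 and 485, 1.41), and *Hsd17b13*, a lipid droplet protein (546 and 1528, 1.30). *Hsd17b13* and *Hal* each had 2 probes. The other *Hsd17b13* probe gave a log2 ratio of 0.28, and the other *Hal* probe gave no ratio. Over all detected genes, 3.50% were higher past the same limit. The periportal gene with the lowest ratio was *Igf1*, at -0.91 (31490 and 19080). The median of 0.96 was the value of *Pck1*, the 1 bound of this list, with 11.7 (control), not well above background, and 40.2 (*Drp1*LiKO). The log2 ratio of *Pck1* ran from 0.00 to 1.60 over 9 alternatives. The count of 5 was 0 when dim signals were used without a floor and 4 to 6 under the other alternatives, while the periportal median stayed between 0.54 and 1.30. The lowest log2 ratio over the alternatives was 0.88 for *Hal*, 1.15 for *Arg1*, 1.52 for *Cyp2f2*, 0.48 for *Aldh1b1* and 0.79 for *Hsd17b13*. Pericentral genes of either kind had medians near that of all genes, and the periportal list lay above it. These medians describe 2 arrays and were not tested against each other.

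**Figure D4:**
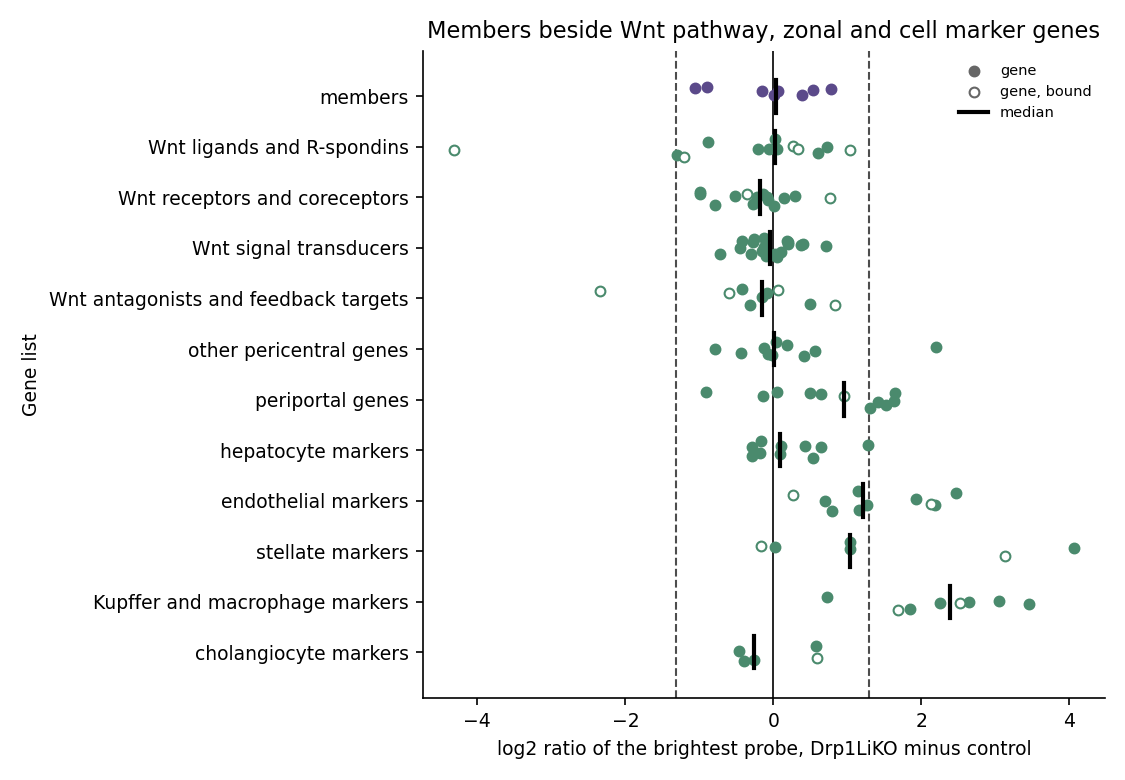
Log2 ratio (*Drp1*LiKO minus control) of each detected gene of the 10 pericentral Wnt genes (purple) and of the other lists (green), by brightest probe. Open points are bounds, black bars medians and dashed lines a Z score of 2. The medians of the pericentral and Wnt lists lie between -0.18 and 0.04, those of periportal genes at 0.96 and of macrophage markers at 2.38.

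Markers of the cell types a culture can hold were read in the same way, since Wnt ligands and R-spondins come from cells other than hepatocytes. Past the Z score of 2, 3.50% of all detected genes were higher and 2.81% were lower. Hepatocyte markers were all detected, 6 of 10 above 0, with a median log2 ratio of 0.10, a range from -0.28 to 1.28 and 0 past the Z score of 2. Their summed level, in multiples of each array's 75th percentile signal, was 1756 (control) and 1786 (*Drp1*LiKO). The brightest were *Alb* (219600 and 266700) and *Trf* (191900 and 179100). Endothelial markers were above 0 in 10 of 10 genes, with a median of 1.21 and 4 past the Z score, and their summed level was 14.9 and 27.2, in the same order. The brightest were *Egfl7* (3773 and 6941) and *Stab1* (337 and 664). Stellate markers were above 0 in 5 of 6 detected genes, with a median of 1.04, 2 past the Z score and a summed level of 69.7 and 81.8, the brightest being *Acta2* (21440 and 24640) and *Dcn* (203 and 3848). The summed level is mostly that of *Acta2*. Of its 4 probes, the brightest gave a log2 ratio of 0.02 and another gave 2.20. *Des*, the stellate marker below 0, was a bound (6.47, not well above background, and 18.5). Its log2 ratio ran from -0.25 to 1.33 over 9 alternatives, so its sign is not settled. Kupffer cell and macrophage markers were above 0 in 8 of 8 detected genes, with a median of 2.38, 7 past the Z score and a summed level of 14.1 and 52.4, the brightest being *Cd68* (2346 and 9593) and *Lyz2* (829 and 4464). Cholangiocyte markers were above 0 in 2 of 5 detected genes, with a median of -0.27 and a summed level of 94.7 and 70.8, the brightest being *Spp1* (24720 and 20350) and *Krt19* (4049 and 3482). The endothelial (*Lyve1* and *Tek*), stellate (*Col3a1* and *Des*) and macrophage (*Clec4f* and *Vsig4*) lists held 2 bounds each, and the cholangiocyte list 1 (*Krt7*). All were dim in control cells, and *Lyve1*, *Col3a1*, *Clec4f* and *Vsig4* were past the Z score. None was measured under the filter for detection on both arrays. The log2 ratio ran from -0.01 to 2.54 for *Tek* and from 0.00 to 2.25 for *Krt7* over 9 alternatives. Both cultures thus carried the hepatocyte markers at similar levels, and the *Drp1*LiKO array had the higher endothelial, stellate and macrophage signal. The part of these cells in the values of *Rspo3*, *Wnt2*, *Wls* and the 10 genes was not tested, and fewer cells of a type and less RNA per cell cannot be told apart in whole cultures.

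The gene deleted in the *Drp1*LiKO mice goes by the symbol *Dnm1l* on the array. Its brightest probe had signals of 2602 and 1217, a log2 ratio of -1.28, and its other probe, near background, had 22.8 and 20.9, a log2 ratio of -0.31. Whether these probes lie in the deleted part of the gene is not given in the sources used here. The share of the 56600 probes well above background was 48.2% on the control and 52.1% on the *Drp1*LiKO array, 0 spots were saturated, and 0 spots of the 20 probes were marked as outliers. The 75th percentiles of the arrays differed by 0.18 and 7 spike-in probes by 0.14 on the log2 scale, so the choice between these scalings moves every ratio by 0.04.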

How the data were processed

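RNA of control and *Drp1*LiKO primary hepatocytes was measured on 1 one-color Agilent array per genotype. For both arrays the authors deposited scanner output of Feature Extraction (version 9.5.1.1 per the labels, another version per the file headers), with spot intensity as a background-corrected processed signal, not normalized between arrays. They also deposited a table of normalized intensity values. Its scale and centring are not stated, both columns have a median of 19.1, and across probes the rank correlation with the array was 1.0 for the control and 0.958 for the *Drp1*LiKO values. The latter do not keep the probe order of their array, for a reason not given, so the table served only as an alternative, and its ratios carry this doubt.

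Control spots and outlier spots were left out, the spots of a probe were averaged as log2 signals, and each array's 75th percentile was subtracted. A probe was kept (30275 in all) if 1 array or both placed it well above background. A dim signal was raised to the lowest signal well above background on that array, which makes its ratio a bound ("at least"). The Z score used the mean and SD (0.65) of the ratios of kept probes. A gene is its brightest probe. Noise between spots came from probes printed 10 times. The number of arrays limits the precision.

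Alternatives were quantile normalization, spike-in scaling, the deposited normalized values, normexp with an offset of 50, genes read by the median ratio of their probes, a filter for detection on both arrays, no filter, dim signals left without a floor, inclusion of outlier spots and a robust Z score. The members and gene lists were chosen with earlier results of these data known. All 10 genes, *Dnm1l*, genes of the pathway and zonal lists past a Z score of 2 and the highest and lowest gene of each of these lists are named. The 2 brightest markers of each cell type and the markers that were bounds are named as well, and other markers past a Z score of 2 are counted. The steps were tested on simulated data. Gene names and coordinates (mm9) are those of the files, and all 10 names and accessions stand in RefSeq (GRCm38.p6). Python 3.11.15, numpy 2.4.6, pandas 2.3.3, matplotlib 3.10.9, R 4.3.3 and limma 3.58.1 were used.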

Additional observations from a re-analysis of the deposited data

How the results depend on the processing

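The 1.5-fold counts, 1 gene higher and 2 lower, were the same under all 10 alternatives. Past the Z score of 2, the counts of 0 and 0 became 1 higher (*Rgn*, 2.02) and 1 lower (*Tbx3*, -2.01) with normexp background correction. Under it 731 of all genes were higher and 546 lower, against 705 and 566. A robust Z score gave 1 higher (*Rgn*) and 2 lower (*Tbx3* and *Oat*), with 1722 of all genes higher and 1443 lower. With no filter on dim probes 1355 of all genes were higher and the median of all genes was -0.47, the difference between the detection limits of the arrays. The other alternatives kept the member counts at 0.

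Over the alternatives, the median log2 ratio of the 10 genes ran from -0.07 to 0.32, *Tbx3* from -1.19 to -0.86, *Oat* from -0.89 to -0.84, *Rgn* from 0.77 to 0.84 and *Lect2* from 0.49 to 0.57. *Glul* was 0.40 by the median of its probes, against 0.01. In the deposited normalized values another *Glul* probe, starting at base 1062, became the brightest, at 0.42. The probe behind the 0.01 lay at -0.06 there, and the probe starting at base 408 at 0.04. The reading of the periportal count under the alternatives was added after seeing the data. No paired analysis was possible because there was 1 array per genotype, and no array could be left out for the same reason. Signals near background limit *Axin2*, *Lgr5*, the dim *Rnf43* probe and several ligands.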
